A study of Mus musculus with 4 samples.

Results

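The genes described here are 10 genes of the liver X receptor (LXR) system: the receptor genes Nr1h2 and Nr1h3, and the lipid transport and lipid synthesis targets Apoe, Pltp, Apoc1, Abca1, Abcg1, Lpl, Mylip and Srebf1. They are 10 of 54838 gene identifiers in the deposited count tables and were chosen by symbol, starting from Apoe and Pltp, which were already known to be higher in the knock-in libraries of these data. The comparison asks whether the other LXR targets go the same way. Because that contrast guided the choice, the differences between the lines are descriptions for the 10 genes: no p-value is given for any of them, and counts past a threshold stand only beside the share over all genes.

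RNA was sequenced from mouse embryonic stem cells of strain 129/Ola, 2 libraries from the wild-type line E14 (E14Tg2a.4) and 2 from its p300 knock-in derivative MLC460. In MLC460, made with CRISPR/Cas9, monomeric enhanced green fluorescent protein was joined at the N-terminus to p300 made from its own locus, a histone acetyltransferase and transcriptional coactivator. Both lines grew on gelatin in medium with fetal bovine serum and leukemia inhibitory factor. The labels call the libraries biological replicates without saying whether cultures were separate, so errors measure only the spread between these libraries, and a single knock-in line cannot separate the tag from other changes that arose when the line was derived. Assigned counts ranged from 18946731 to 26553998 per library.

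LXRs are nuclear receptors that bind DNA together with a retinoid X receptor and are activated by oxidised derivatives of cholesterol. They are best known in macrophages, liver and intestine, where they raise genes that move cholesterol out of cells and onto lipoproteins, raise fatty acid synthesis through SREBP1c, and limit lipoprotein uptake through the ubiquitin ligase encoded by Mylip. Without ligand the receptors can hold target genes down with corepressors such as NCOR1, and p300 is among the coactivators of nuclear receptors.

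Wild-type 2 stood apart from the other libraries. Its deviation in CPM (counts scaled to library size), on the log2 scale, from the mean of the others rose with transcript GC content across genes (Spearman rho = 0.65, against -0.43 to -0.27 for the others, across genes, which are not replicates), and mitochondrial genes took 0.589% of its counts where the others had 1.04% to 1.27%. Results are therefore also given without it and after a GC correction, which scales each library by a smooth function of transcript GC content. That correction was centred on the median gene after an uncentred form had been run and seen, and the uncentred log2 fold changes were 0.67 for Apoe and 0.91 for Pltp, beside a median gene moved to 0.064. Apoe, Pltp, Srebf1 and Nr1h2 have GC-rich transcripts (57.3% to 60.6%), while those of Lpl and Abca1 are at 43.5% and 47.5%. Ep300 itself had 209 and 210 CPM in wild-type 1 and 2, and 181 and 210 CPM in knock-in 1 and 2, which does not separate tagged from untagged transcript. The defining stem cell genes Pou5f1, Sox2 and Nanog each lay between 420.1 and 660.4 CPM in every library.

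Apoe encodes apolipoprotein E, the secreted acceptor that carries cholesterol and is a ligand of the lipoprotein receptors. Apoe (ENSMUSG00000002985, GRCm38 chromosome 7, 19696109 to 19699188, minus strand) had 411 and 556 CPM in wild-type 1 and 2, and 664 and 608 CPM in knock-in 1 and 2. Both knock-in libraries lay above both wild-type libraries, with wild-type 2 between wild-type 1 and the knock-in pair. The group means were 483 ± 102 and 636 ± 39.1 CPM (SD, n = 2 each), which gave a log2 fold change of 0.40 (SE 0.17) for knock-in over wild-type. The wild-type libraries alone differed by 0.43 on the log2 scale, more than the lines did. Leaving out wild-type 1 brought the log2 fold change to 0.20 and leaving out wild-type 2 to 0.62, while the fits that lacked knock-in 1 or 2 gave 0.31 and 0.46. With the GC correction the libraries stood at 424 and 466 CPM in wild-type and 706 and 652 CPM in knock-in libraries, and the log2 fold change came to 0.61 (SE 0.11), so the wild-type pair came closer together and the gap to the knock-in pair widened.

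Pltp encodes phospholipid transfer protein, which moves phospholipid between lipoproteins and reshapes high-density particles. Pltp (ENSMUSG00000017754, chromosome 2, 164839518 to 164857711, minus strand) had 37.6 and 42.4 CPM in wild-type 1 and 2, and 61.7 and 65.3 CPM in knock-in 1 and 2. The groups did not overlap, and their distance exceeded the spread within either pair. The means were 39.98 ± 3.37 and 63.5 ± 2.51 CPM (SD, n = 2 each), which gave a log2 fold change of 0.67 (SE 0.16). Leaving out 1 library at a time gave 0.58 to 0.74, and the GC correction gave 0.85 (SE 0.11). The 3' end of Pltp overlaps Ctsa, a lysosomal protease gene on the opposite strand, over 1515 bases of gene body, and the unstranded counting left reads that fit both genes out. The Pltp count was 65.3% to 66.9% of the sum of its strand-specific counts, and that share was alike in both lines. The libraries did not keep the strand, with 50.2% to 50.5% of all strand-specific counts in the second such column. Ctsa reads from the overlap can therefore enter both columns, and how far the level of Pltp is understated was not measured. The log2 fold change was 0.66 and 0.68 from those columns, which are no check free of Ctsa. Ctsa itself had 74.6 and 86.4 CPM in wild-type and 91.5 and 90.2 CPM in knock-in libraries, for a log2 value of 0.18 (SE 0.15).

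**Figure D1:**
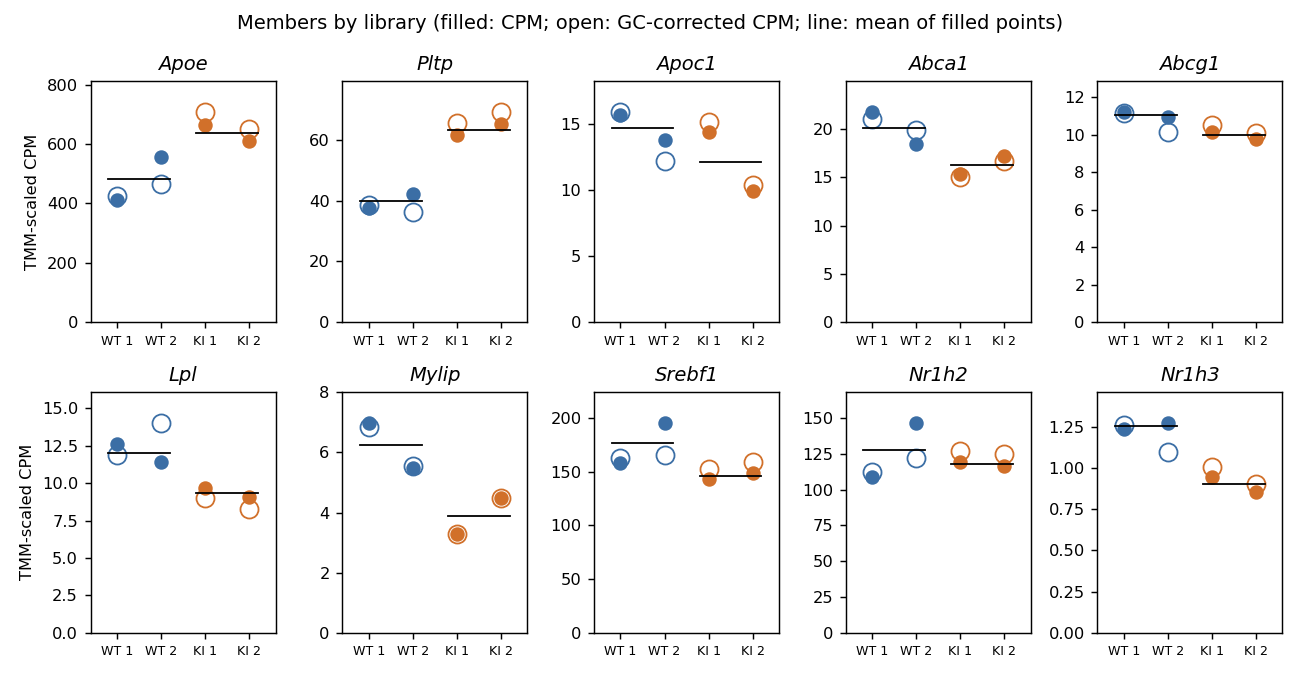
TMM-scaled CPM (vertical axis from 0) of the 10 genes in wild-type (WT, blue) and knock-in (KI, orange) libraries 1 and 2; filled points are CPM, open points GC-corrected CPM and lines the group means of the filled points. Apoe and Pltp are the genes whose 2 knock-in libraries lie above both wild-type libraries in filled and open points, as Nr1h2 does in open points only, while 6 of the other 8 lie below in filled points.

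The other 8 genes did not follow Apoe and Pltp. All 8 had negative log2 fold changes with all libraries (-0.69 to -0.11, median -0.29), beside a median of 0.00098 over all 15191 genes tested. In 6 of the 8, namely Abca1, Abcg1, Lpl, Mylip, Srebf1 and Nr1h3, both knock-in libraries lay below both wild-type libraries, and in Apoc1 and Nr1h2 the groups overlapped. Over all tested genes, 23.4% had both knock-in libraries above and 23.9% had both below. With the GC correction 3 of the 10, Nr1h2 among them, were above and 5 below, against 24.2% and 23.6% of all tested genes. By edgeR's quasi-likelihood test (Benjamini-Hochberg adjustment) 0 of the 10 came under an adjusted p of 0.05, where 0.0658% of all tested genes did. Of the 10, 3 had an unadjusted p under 0.05 with edgeR, where 1662 of all 15191 tested genes did. DESeq2 and limma-voom called 0 of the 10, where they called 123 and 4 of all 15191. With the GC correction 2 of the 10 passed, Apoe and Pltp, both as higher, against 1.26% of all tested genes and 0.211% as higher. Without wild-type 1 the genes past the threshold were Pltp as higher and Srebf1 and Nr1h2 as lower (3 of 10, against 32.1% of all tested genes, 19% as higher and 13.1% as lower), and without wild-type 2 they were Apoe and Pltp as higher and Mylip as lower (3 of 10, against 4.39%, 0.711% as higher and 3.68% as lower). Without knock-in 1 or knock-in 2, 0 of 10 passed, against 0.107% and 0.099% of all tested genes. Nothing is read from these counts, since the same contrast guided the choice of genes.

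The promoter sequences of 4 of the genes are shown to set the genes that were higher beside established LXR targets that were not. RefSeq promoter windows of 300 bases (250 before to 50 after a start site, GRCm38.p6) were on hand for 7 of the 10 genes, 12 windows in all. Each sequence runs 5′ to 3′ on the gene's own strand, which is the minus strand in all 4, and capitals mark a match, on either strand, to GGGTTA and CGGTCA with any 4 bases between them. The Apoe window is chr7:19699139-19699438, that of the most upstream of 3 start sites, the Pltp window chr2:164857659-164857958, the Abca1 window chr4:53159846-53160145 and the Srebf1 window chr11:60210422-60210721, which belongs to the most downstream of 3 start sites of that gene.
Apoe: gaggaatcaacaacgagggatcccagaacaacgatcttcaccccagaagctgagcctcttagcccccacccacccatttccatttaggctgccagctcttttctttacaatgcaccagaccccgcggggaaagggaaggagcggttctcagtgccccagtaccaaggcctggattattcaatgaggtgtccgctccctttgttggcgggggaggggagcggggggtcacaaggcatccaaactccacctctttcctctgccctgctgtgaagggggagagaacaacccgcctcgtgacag
Pltp: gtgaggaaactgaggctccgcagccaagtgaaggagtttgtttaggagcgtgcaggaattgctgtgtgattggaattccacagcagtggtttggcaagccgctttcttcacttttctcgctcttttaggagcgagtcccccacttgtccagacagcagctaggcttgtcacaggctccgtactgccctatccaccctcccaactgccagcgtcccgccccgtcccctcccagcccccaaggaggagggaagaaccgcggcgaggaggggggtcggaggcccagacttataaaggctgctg
Abca1: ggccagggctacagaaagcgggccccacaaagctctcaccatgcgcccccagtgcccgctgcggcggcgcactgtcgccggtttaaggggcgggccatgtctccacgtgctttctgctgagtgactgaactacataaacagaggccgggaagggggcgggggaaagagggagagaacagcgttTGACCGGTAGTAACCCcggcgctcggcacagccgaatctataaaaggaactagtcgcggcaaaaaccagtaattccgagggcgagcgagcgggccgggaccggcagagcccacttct
Srebf1: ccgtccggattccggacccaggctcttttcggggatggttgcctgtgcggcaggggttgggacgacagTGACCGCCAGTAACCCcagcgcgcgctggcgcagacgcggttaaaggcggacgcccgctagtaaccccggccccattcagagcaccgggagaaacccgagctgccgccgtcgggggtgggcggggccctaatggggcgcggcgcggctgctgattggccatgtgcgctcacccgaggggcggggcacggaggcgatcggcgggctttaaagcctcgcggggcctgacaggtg

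The consensus LXR element is a direct repeat of AGGTCA with 4 bases between the repeats. Searched on both strands, the exact repeat was in 0 of the 12 windows and in 0.0152% of all 32851 RefSeq windows of this length, and the single unit AGGTCA, which that repeat contains, was in 0 of the 12 and in 16.3% of all. Another repeat, GGGTTA and CGGTCA with any 4 bases between them, was written from the Abca1 and Srebf1 windows after these had been read, so that both hold it by construction. It shares no match with the other motifs and was present in 3 of 32851 windows (0.00913%), those of Abca1, Srebf1 and Fasn. The repeats are given as they read on the strand that carries them, opposite to the gene in all 3, with those 4 bases in lower case.
Abca1: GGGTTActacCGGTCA
Srebf1: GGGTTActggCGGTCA
Fasn: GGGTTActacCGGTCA
In the gene's own direction their first bases lie at -67, -182 and -225 from the start site (chr4:53159947-53159962, chr11:60210638-60210653 and chr11:120824757-120824772). The windows of Apoe and Pltp hold none of these 3 motifs. Neither do those of Nr1h2, Nr1h3 and Mylip, so the absence does not set Apoe and Pltp apart. A search of 300 bases says nothing of elements farther away. With all libraries the log2 fold change was -0.31 (SE 0.19) for Abca1, -0.27 (SE 0.16) for Srebf1 and -0.15 (SE 0.17) for Fasn. The value for Fasn turned to 0.065 without wild-type 2 and to 0.047 with the GC correction.

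Of the receptors, Nr1h2, which encodes LXRβ, was the form measured in quantity. Nr1h2 (ENSMUSG00000060601, chromosome 7, 44549616 to 44553951) had 109 and 146 CPM in wild-type 1 and 2, and 119 and 116 CPM in knock-in 1 and 2. Wild-type 2 was the highest library and wild-type 1 the lowest, so the groups overlapped. The means were 128 ± 26.6 and 118 ± 2.20 CPM (SD, n = 2 each), which gave a log2 fold change of -0.11 (SE 0.17), and the sign turned to 0.10 without wild-type 2 and to 0.10 with the GC correction. Nr1h3 (ENSMUSG00000002108, chromosome 2, 91184061 to 91202834), which encodes LXRα, the form typical of liver and macrophages, had few assigned counts. It had 34 and 28 counts in wild-type 1 and 2 (1.23 and 1.27 CPM) and 23 and 16 counts in knock-in 1 and 2 (0.944 and 0.857 CPM). Both knock-in libraries were lower, by a log2 fold change of -0.47 (SE 0.39) whose 95% interval, -1.36 to 0.42, spans both directions at this depth. Per kilobase of annotated exon, Nr1h2 exceeded Nr1h3 by 66.0 and 86.3 times in wild-type and by 94.7 and 102 times in knock-in libraries. Gm13783, a processed transcript on the same strand, overlaps the Nr1h3 gene body over 6873 bases and had no count in any library. Reads that fit both genes were left out. How far the level of Nr1h3 is understated, and the ratio overstated, was not measured.

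Apoc1 lies next to Apoe and encodes a small apolipoprotein that shares its lipoprotein particles. Apoc1 (ENSMUSG00000040564, chromosome 7, 19689481 to 19692660) had 15.7 and 13.8 CPM in wild-type 1 and 2, and 14.4 and 9.90 CPM in knock-in 1 and 2. The groups overlapped, and knock-in 2 alone was low. Its log2 fold change was -0.27 (SE 0.23), -0.59 without knock-in 1 and -0.028 without knock-in 2, and -0.13 with the GC correction. The ratio of Apoe to Apoc1 per kilobase was 9.11 in wild-type 1 and 14.1 in wild-type 2, beside 16.03 in knock-in 1 and 21.4 in knock-in 2. The ratio was thus lowest in wild-type 1, and its groups did not overlap. Since Apoe was chosen as higher in the knock-in libraries, nothing is read from that separation.

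Abca1 and Abcg1 encode the transporters that pass cholesterol from the cell to lipid-poor apolipoprotein and to high-density particles. Abca1 (ENSMUSG00000015243, chromosome 4, 53030787 to 53159895) had 21.7 and 18.5 CPM in wild-type 1 and 2, and 15.4 and 17.2 CPM in knock-in 1 and 2. The knock-in libraries were both lower, but knock-in 2 lay close to wild-type 2. The log2 fold change of -0.31 (SE 0.19) became -0.18 without wild-type 1, -0.43 without wild-type 2 and -0.38 (SE 0.14) with the GC correction. Abcg1 (ENSMUSG00000024030, chromosome 17, 31057675 to 31117988) was nearly level, with 11.2 and 10.9 CPM in wild-type 1 and 2, and 10.1 and 9.80 CPM in knock-in 1 and 2. The log2 value of -0.15 (SE 0.20) had a 95% interval of -0.59 to 0.29, and with the GC correction, at -0.048 (SE 0.16), its groups overlapped.

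Lpl encodes lipoprotein lipase, which releases fatty acids from triglyceride-rich particles. Lpl (ENSMUSG00000015568, chromosome 8, 68880491 to 68907448) had 12.6 and 11.4 CPM in wild-type 1 and 2, and 9.69 and 9.05 CPM in knock-in 1 and 2. The groups did not overlap. Its log2 fold change of -0.36 (SE 0.20) was -0.57 (SE 0.17) with the GC correction, farther below 0. Its transcript is low in GC content (43.5%), while the values of the GC-rich Apoe, Pltp, Srebf1 and Nr1h2 all moved upward with that correction. Mylip (ENSMUSG00000038175, chromosome 13, 45389742 to 45412022), whose product is a ubiquitin ligase that limits lipoprotein uptake, had 6.97 and 5.49 CPM in wild-type 1 and 2, and 3.28 and 4.50 CPM in knock-in 1 and 2. It had the most negative log2 fold change of the 10 genes, -0.69 (SE 0.27), from -0.92 without knock-in 2 to -0.49 without knock-in 1, and -0.69 (SE 0.24) with the GC correction.

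Srebf1 encodes SREBP1, and its SREBP1c form is the LXR target that drives fatty acid synthesis. Srebf1 (ENSMUSG00000020538, chromosome 11, 60199089 to 60222581) had 158 and 195 CPM in wild-type 1 and 2, and 143 and 149 CPM in knock-in 1 and 2. Wild-type 2 was the highest, and the other 3 libraries lay between 143 and 158 CPM. The log2 fold change of -0.27 (SE 0.16) was -0.13 without wild-type 2 and -0.076 (SE 0.10) with the GC correction. Gene-level counts do not separate SREBP1c from SREBP1a, which starts at another promoter.

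**Figure D2:**
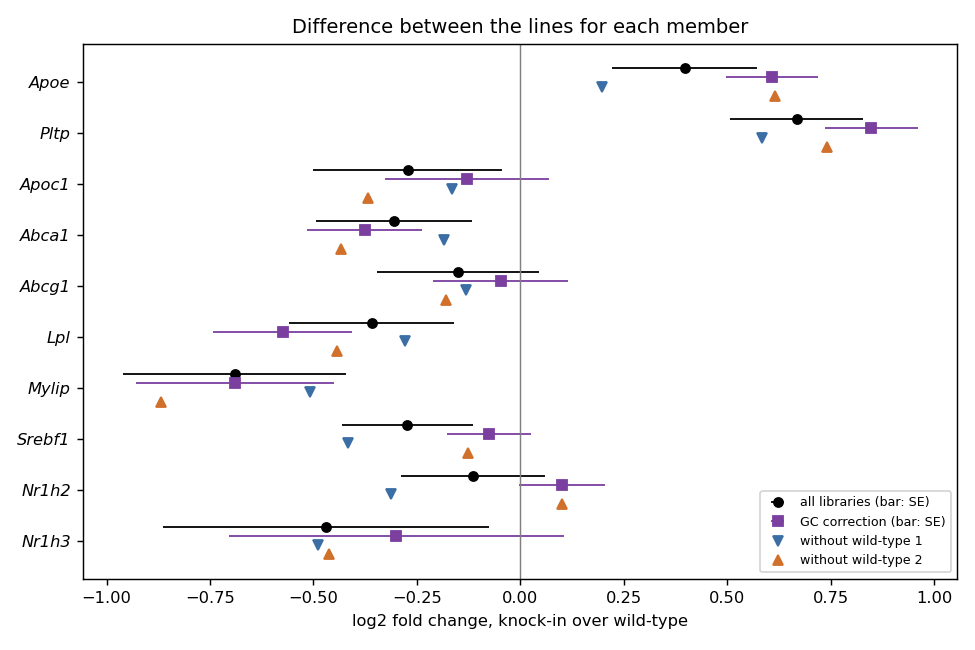
Log2 fold change of knock-in over wild-type (horizontal axis) for each of the 10 genes with all libraries (black, bar: standard error), with the GC correction (purple, bar: standard error) and without wild-type 1 (blue) or wild-type 2 (orange). Apoe (0.20 to 0.62) and Pltp (0.58 to 0.85) stay above 0 in all 4, Nr1h2 changes side (-0.31 to 0.10), and the other 7 stay below 0.

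Levels of the genes can be compared per kilobase of annotated exon, as RPKM, the CPM divided by exon length. Apoe was by far the most abundant, at 262 ± 50.7 RPKM over the 4 libraries (SD), above 98.97% of the tested protein-coding genes or level with them. Nr1h2 (36.6 ± 4.89), Srebf1 (28.6 ± 4.16), Pltp (20.2 ± 5.38) and Apoc1 (18.1 ± 3.35) followed, and in each neighbouring pair of these 4 the ranges over the libraries overlapped. Below them came Abca1 (1.76 ± 0.26), Mylip (1.57 ± 0.48) and Abcg1 (1.44 ± 0.090), again overlapping between neighbours. Lpl (1.02 ± 0.16) and Nr1h3 (0.43 ± 0.082) were the lowest, each with a range apart from that of the gene next above. The levels of Pltp and Nr1h3 may be understated, since reads shared with an overlapping gene were left out. The middle of the order depends on the length used: over the longest annotated transcript, Lpl moved from the ninth to the sixth place at 2.60 RPKM and Apoc1 passed Pltp, while Apoe, Nr1h2 and Srebf1 remained the first and Nr1h3 the last.

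**Figure D3:**
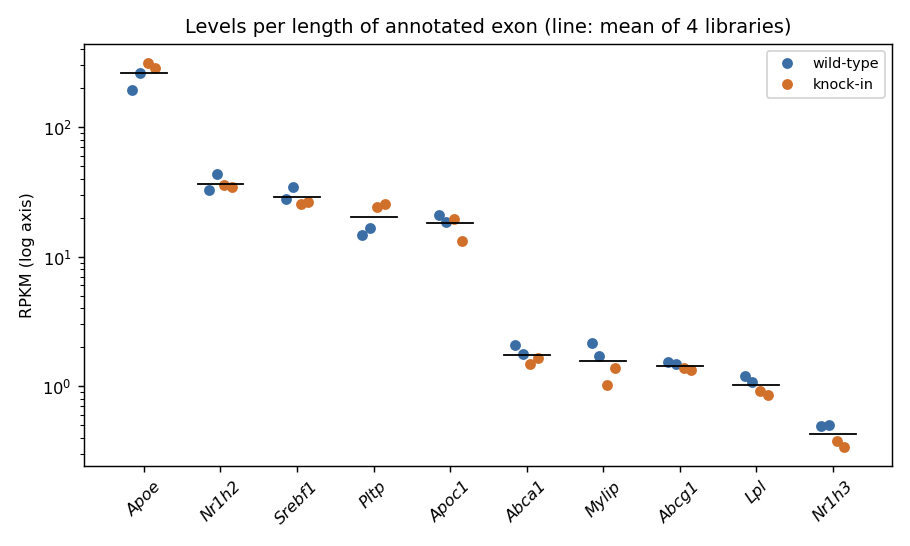
Level of each gene in RPKM (logarithmic vertical axis) in the 2 wild-type (blue) and 2 knock-in (orange) libraries, ordered by the mean of all 4 (line). Apoe, at 192 to 310 RPKM, stands above all others, and Nr1h3, at 0.34 to 0.51 RPKM, below.

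The genes around Apoe and Pltp were read for a shared shift. Within 50 kb of Apoe, 4 genes were tested, and all 4 had negative log2 fold changes with all libraries: Apoc1, and Tomm40 (-0.18, SE 0.20) on the other side, which encodes the import channel of the mitochondrial outer membrane, then Nectin2 (-0.14, SE 0.16) and Clptm1 (-0.29, SE 0.15). Without wild-type 2, Tomm40 and Nectin2 turned positive, as Nectin2 did with the GC correction. Within 50 kb of Pltp, 8 genes were tested, 5 with positive and 3 with negative values, and in 4 of them both knock-in libraries were above both wild-type libraries, where 23.4% of all tested genes were. With the GC correction these were 6 of the 8, against 24.2%. Next to Pltp lie Neurl2, at 0.29 and 0.50 CPM in wild-type and 0.74 and 0.80 CPM in knock-in cells (0.98, SE 0.52), and Pcif1 (0.034, SE 0.19). The remaining tested genes there, beside Ctsa, were Snx21 (0.21, SE 0.22), Zswim3 (0.19, SE 0.17), Zswim1 (-0.091, SE 0.16), Zfp335 (-0.19, SE 0.20) and Acot8 (-0.32, SE 0.20). With edgeR, 0 of the 12 passed an adjusted p of 0.05, both with all libraries and with the GC correction, where 0.0658% and 1.26% of all tested genes did.

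Likeness of profile was measured as the root mean square difference in log2 CPM, each gene centred on its own mean over the 4 libraries, among 8778 other protein-coding genes of at least 10 CPM. It uses the contrast itself and is a description. The nearest to Apoe were Robo4 (0.030), Myc (0.037), Dcaf12l1 (0.053) and Irf2bpl (0.057), and Myc, for example, had 48.0 and 68.1 CPM in wild-type 1 and 2 and 76.8 and 74.2 CPM in knock-in 1 and 2. The nearest to Pltp were Bmp4 (0.037), Uap1l1 (0.062), Spata31d1b (0.088) and Hbegf (0.089), and Bmp4 had 50.1 and 56.0 CPM in wild-type and 80.9 and 81.5 CPM in knock-in cells. Apoe and Pltp differed from each other by 0.17, which placed Apoe at rank 66 for Pltp and Pltp at rank 425 for Apoe. The other members of at least 10 CPM were farther from Apoe, from rank 2898 for Nr1h2 to rank 7930 for Apoc1.

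The rest of the pathway was read from 7 lists of 67 further genes, of which 56 passed the low-count filter. None of the 56 passed an adjusted p of 0.05 with edgeR and all libraries, where 0.0658% of all tested genes did. At an unadjusted p under 0.05 with edgeR there were 14 of the 56, where there were 1662 of all 15191 tested genes. DESeq2 called 1 (Lrp1, lower) and limma-voom 0, where they called 123 and 4 of all 15191. For 2 of the 56 DESeq2 gave no adjusted p. The median log2 fold change was -0.16, beside 0.00098 for all tested genes, with 19 values above and 37 below 0. With the GC correction the median was -0.085 and 2 of the 56 passed as lower, Scarb1 and Lrp1, where 1.05% of all tested genes passed as lower. The median was -0.21 without wild-type 1 and -0.14 without wild-type 2, beside 0.0070 and -0.013 for all tested genes. Genes outside the naming rule, such as Lrp1, are named here after their values were seen.

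Among partners and cofactors, 11 of 11 were tested and 5 had positive values (median -0.043). The corepressor gene Ncor1 and the coactivator gene Ncoa3 were the most abundant of them, each with a log2 value of 0.17 (SE 0.14). The retinoid X receptor genes, the obligate partners of LXR, had values of -0.35 (SE 0.19) for Rxra, -0.043 (SE 0.16) for Rxrb and 1.28 (SE 0.56) for Rxrg. Rxrg was at 0.23 to 0.82 CPM in every library, so its value rests on few counts, and none of the 3 passed (edgeR adjusted p = 0.501, 0.934 and 0.455).

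Of 13 further LXR targets in sterol and lipoprotein transport, 5 were tested, and all 5 had negative values (median -0.47). Scarb1, which encodes the high-density lipoprotein receptor SR-BI, had 91.9 and 82.3 CPM in wild-type 1 and 2, and 60.1 and 66.0 CPM in knock-in 1 and 2. The groups did not overlap, and the log2 value was -0.47 (SE 0.16; adjusted p = 0.378 with edgeR). Scarb1 passed with the GC correction (-0.50, adjusted p = 0.0434) but not without the centring of that correction (-0.44, adjusted p = 0.0715). Its log2 value was -0.38 without wild-type 1 and -0.56 without wild-type 2. Under the GC correction, leaving out knock-in 1 or knock-in 2 ended that call, with log2 values of -0.44 and -0.56. Lpcat3, which remodels membrane phospholipid, was nearly level at -0.11 (SE 0.16). Apod and Arl4c had values of -0.59 (SE 0.21) and -0.96 (SE 0.27), and Mertk -0.27 (SE 0.24). The 8 untested targets include the sterol transporter genes Abcg5 and Abcg8, the bile acid enzyme gene Cyp7a1, and Apoc2 and Apoc4 of the Apoe cluster, and none exceeded 0.41 CPM in any library. Abcg8 and Cyp7a1 had no count in any library, which allows up to 3 counts, or 0.11 to 0.16 CPM, per library (counting error only).

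The lipogenic list, 12 of 12 tested, was balanced, with 6 values above and 6 below 0 (median -0.010, range -0.63 to 0.40). The desaturase gene Scd2 (0.18, SE 0.16) and the citrate lyase gene Acly (-0.078, SE 0.15) were its most abundant members per kilobase of exon. Fasn, the fatty acid synthase gene, had 900 and 1214 CPM in wild-type 1 and 2, and 938 and 964 CPM in knock-in 1 and 2. As with Srebf1 and Nr1h2, wild-type 2 was the highest library, and the value of -0.15 for Fasn became 0.047 with the GC correction.

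Lipoprotein receptors and their partners, 9 of 9 tested, had 8 negative values and 1 at 0.0022 (median -0.29), and in 6 of them both knock-in libraries were below both wild-type libraries, where 23.9% of all tested genes were. Lrp1, a large receptor that takes up particles bearing apolipoprotein E, had 250 and 276 CPM in wild-type 1 and 2, and 118 and 168 CPM in knock-in 1 and 2. Both knock-in libraries were well below both wild-type libraries, although they also differed from each other. The log2 value was -0.88 (SE 0.19; adjusted p = 0.174 with edgeR), and it passed with the GC correction (-0.69, adjusted p = 0.0380). That call was lost without knock-in 1 (-0.46, adjusted p = 0.336). The receptor chaperone gene Lrpap1 (-0.24, SE 0.16), among the most abundant of the list, did not pass. The apolipoprotein E receptor genes Vldlr and Lrp8 had values of -0.48 (SE 0.17) and 0.0022 (SE 0.19).

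Among lipases and partners of lipoprotein lipase, 6 of 7 were tested and 4 had negative values (median -0.16). Pnpla2, the adipose triglyceride lipase gene, had 0.029 (SE 0.17) and Angptl4, which encodes an inhibitor of lipoprotein lipase, -0.19 (SE 0.19). Gpihbp1, the endothelial anchor of the lipase, had no count in any library. In the phospholipid transfer and lipid-binding list, 5 of 6 were tested, 4 with negative values (median -0.42), with -0.19 (SE 0.19) for Abca2 and -0.42 (SE 0.19) for Abca7. Lbp, a relative of Pltp, was near the limit of detection at 0.12 to 0.62 CPM. Of 9 genes of oxysterol and sterol handling, 8 were tested and split evenly (median -0.073), with 0.074 (SE 0.14) for the lysosomal sterol carrier gene Npc2 and 0.13 (SE 0.15) for Acat2.

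**Figure D4:**
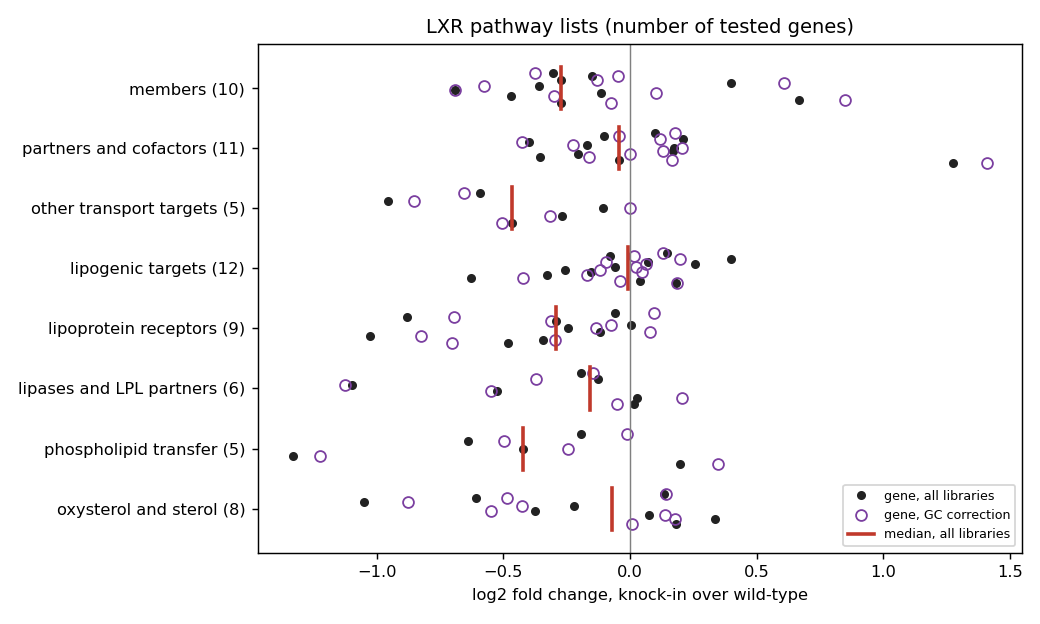
Log2 fold change of knock-in over wild-type (horizontal axis) of every tested gene in the 10 genes described (top) and the 7 further lists, with all libraries (filled) and with the GC correction (open); red bars are medians with all libraries. Apoe (0.40) and Pltp (0.67) lie to the right of the other members, and medians run from -0.47 for other transport targets to -0.010 for lipogenic targets.

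Apoe, Apoc1, Lpl and Pltp are also expressed by endoderm, macrophages and fibroblasts, so markers of such cells were summed, and in bulk RNA fewer cells of a type and less RNA per cell cannot be told apart. The 8 macrophage markers summed to 31.1 to 31.2 CPM in wild-type and 21.0 to 22.8 CPM in knock-in libraries. Of these 8, 4 were tested and all 4 had negative values, and the other 4, Ptprc, Csf1r, Itgam and Fcgr1, had under 10 counts in every library. The 14 primitive and visceral endoderm markers summed to 18.5 to 19.3 CPM in wild-type and 12.8 to 14.7 CPM in knock-in libraries. Of the 8 tested, 2 had positive and 6 negative values. Of the 14, 5 had under 10 counts in every library, and among these Afp had none. The 9 fibroblast and feeder markers summed to 38.2 to 40.4 and 23.7 to 26.2 CPM, with 4 of 5 tested negative. Of the 9, 4 had under 10 counts in every library, and among these Lum had none. These 3 sums were lower in both knock-in libraries, the opposite direction to Apoe and Pltp and the same direction as most other members, and their part in those lower values was not tested. The 8 trophoblast markers summed to 60.9 to 67.1 CPM in wild-type and 70.9 to 73.5 CPM in knock-in libraries, with 3 of 5 tested positive. Of these 8, 3 had under 10 counts in every library. The part of the trophoblast markers in the values of Apoe and Pltp was not tested. Of the 22 markers tested in these 4 lists, 0 passed an adjusted p of 0.05 with edgeR and all libraries, where 0.0658% of all tested genes did. Without wild-type 1 the median log2 fold change was -0.36 for macrophage, -0.26 for endoderm, -0.81 for fibroblast and -0.14 for trophoblast markers. Without wild-type 2 these medians were -0.63, -0.26, -0.77 and 0.23. Over all tested genes the medians were 0.0070 and -0.013 in these fits. The 9 stem cell markers summed to 6321 and 6196 CPM in wild-type 1 and 2, and 6819 and 6489 CPM in knock-in 1 and 2. All 9 were tested, 6 with positive and 3 with negative values (median 0.14). This sum too was higher in both knock-in libraries, and its part in the values of Apoe and Pltp was not tested.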

How the data were processed

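The authors deposited gene-level read counts, not normalized, 1 table per library. Trim Galore, STAR 2.5.3a and GRCm38 (mm10) are listed in the submitters' processing notes, and the sources used here do not give the gene annotation. GENCODE M21 on GRCm38 held 54809 of the 54838 identifiers. Summary rows were left out: unmapped 2.38% to 4.39%, multimapping 3.80% to 4.46%, without feature 2.23% to 3.67% and ambiguous 5.96% to 6.38%. Differential expression was tested with edgeR 4.0.16 (R 4.3.3): unstranded counts, TMM scaling, filterByExpr (minimum count 10), quasi-likelihood F test, Benjamini-Hochberg adjustment over 15191 genes, threshold 0.05, genotype as the only term. CPM are TMM-scaled, and the standard error is the absolute log2 fold change over the square root of F. The GC correction fits each library's log2 CPM deviation with a spline in the GC content of the longest transcript and enters as an offset. It was first run without centring; after those values were seen, each library's offset was centred so that the median gene does not move, and the uncentred form is kept as an added alternative.

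Other settings were DESeq2 size factors, other filters, single-strand counts, each library left out, the replicate block, DESeq2 1.42.0 and limma-voom (limma 3.58.1). With a library left out, its lone partner is assumed to vary like the other pair. The members, lists and settings were chosen with earlier results of these data known. Named were the members, the 2 most abundant genes and any called gene of each list, the neighbours of Apoe and Pltp, and their 4 nearest profiles. The procedure was tested on simulated counts. One gene that the rule names is not reported here. Protein sequences were not used here.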

Additional observations from a re-analysis of the deposited data

How the results depend on the processing

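The count of genes past an adjusted p of 0.05, 10 with all libraries, was 354 without the low-count filter, 6 with a stricter one, 123 with DESeq2 and 4 with limma-voom. It was 191 with the GC correction, which was centred on the median gene after the uncentred form, at 188, had been seen. Leaving out 1 library at a time gave 16 to 5015, the highest without wild-type 1, and 711 without wild-type 2. Under the GC correction the same omissions gave 1766 (wild-type 1), 698 (wild-type 2), 126 (knock-in 1) and 177 (knock-in 2). Members past the threshold numbered 0 with all libraries, 0 to 3 with 1 library left out and 2 with the GC correction, centred or not. Under the correction and the same omissions they numbered 3, 3, 1 and 2. Genes of the 7 pathway lists numbered 0 with all libraries, 0 to 25 with 1 left out, 1 without the filter, 1 with DESeq2, 2 with the GC correction and 1 with its uncentred form. Under the correction and the same omissions they numbered 12, 5, 0 and 2. DESeq2 size factors (13) and the strand-specific columns (10 and 11) stayed within 1.5 times the count of 10.

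The replicate numbers are not said to mark a shared batch. Differences between replicates 1 and 2 had a correlation of -0.18 between the lines over 8951 genes, without the GC correction. Because wild-type 2 stood apart with GC content, that value cannot decide whether same-numbered libraries shared a batch. The block is no sign of a pairing. The replicate block gave 197 genes, 0 members and 1 pathway gene, and with the GC correction 443, 2 and 4. A crossed pairing, added after seeing the data, gave 509, 1 and 2.

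Apoe and Pltp kept a positive log2 fold change in every setting. Both were chosen as higher in these same libraries, so nothing is read from that. Among the other members and the list genes named by the rule, these log2 values changed sign, and the cause was not tested. With 1 library left out, Nr1h2 ranged from -0.31 to 0.10, Acly from -0.20 to 0.045, Npc2 from -0.0052 to 0.13 and Pnpla2 from -0.12 to 0.15. Nr1h2 had 0.10 without wild-type 2, 0.10 with the GC correction, 0.10 with correction and block, 0.16 uncentred, and 0.048, 0.16, 0.098 and 0.12 with the correction and wild-type 1, wild-type 2, knock-in 1 or knock-in 2 left out. Apoc1 had 0.081 and 0.12 with the correction and without wild-type 1 or knock-in 2. Abcg1 had 0.025 with the correction and without wild-type 1, and 0.016 uncentred. Acly had 0.045 without wild-type 2, 0.014 with the correction, 0.017 with correction and block, 0.076 uncentred, and 0.11, 0.0024 and 0.041 with the correction and without wild-type 2, knock-in 1 or knock-in 2. Lpcat3 had 0.00081 with the correction, 0.0028 with correction and block, 0.064 uncentred, and 0.11 and 0.067 with the correction and without wild-type 1 or knock-in 1. Abca2 had 0.18 with the correction and without knock-in 1, and 0.051 uncentred. Angptl4 had 0.050 with the correction and without wild-type 2. Npc2 had -0.0052 without knock-in 1. Pnpla2 had -0.0027 with the stricter filter, -0.034 without wild-type 1, -0.12 without knock-in 1 and -0.074 from the second strand-specific column.

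Of 23 further genes named, 14 kept their sign in every setting and 9 did not. The ranges of those 9 were -0.16 to 0.077 for Lrp8, -0.35 to 0.12 for Fasn, -0.14 to 0.23 for Rxrb, -0.44 to 0.19 for Tomm40, -0.31 to 0.12 for Nectin2, -0.20 to 0.13 for Zswim1, -0.17 to 0.31 for Pcif1, -0.41 to 0.11 for Zfp335 and -0.21 to 0.060 for Ep300.

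Only 2 libraries per line limit the precision of every value. Counting error and the spread between libraries were not separated, and Nr1h3 had the fewest counts of the members, 16 to 34.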
